A study of Mus with 9 samples.

Results

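The collagens and the small leucine-rich proteoglycans of the extracellular matrix were examined in the mouse hippocampus. Members were taken by gene symbol. They comprised every collagen chain gene on the array, together with Dcn, Lum, Fmod, Bgn, Ogn, Omd, Prelp and Aspn. The rule found 52 of the 22206 probe sets (a probe set is the group of short probes that reports on a transcript), of which 44 were collagens and 8 were proteoglycans, each gene having 1 probe set. Among the collagens, 11 were fibrillar, 6 were the collagen IV chains of the basement membrane and 27 belonged to other classes.

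The arrays came from male mice of 3 groups, SAMR1, SAMP8 and SAMP8 treated with TG, with 3 arrays in each. SAMP8 is an inbred strain that develops memory deficits early, and SAMR1 is the related strain that ages normally. The study's methods give 16 weeks as the age of the mice used and then describe acclimatization, dosing and maze testing, and the age at tissue collection is not given in the sources used here. Trigonelline (TG, a plant alkaloid) was given by mouth to SAMP8 mice, daily at 5 mg/kg, over 30 days and during 8 further days of water maze testing, and the SAMP8 and SAMR1 controls received vehicle, named as saline in the sample records and as water in the methods. The authors' tables hold 1 average for each probe set and group as log2 signal, where a difference of 1 is a doubling. They carry no value per mouse here, so none of the differences in the following paragraphs has an error or a test, and each is given as a description of these group averages. A member is counted as higher or lower where its averages differ by at least 1.5-fold, or 0.585 on the log2 scale. Below, the strain comparison is SAMP8 against SAMR1 and the TG comparison is treated against vehicle SAMP8, and both use the same SAMP8 averages. Where 3 averages are listed without groups, they are in the order SAMR1, SAMP8 and SAMP8 after TG.

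Collagens are rope-like helical proteins built from glycine-rich repeats. The fibrillar types form the tensile fibers of connective tissue, and collagen IV forms the sheet that underlies endothelium and the glial surface of the brain. The small leucine-rich proteoglycans bind to collagen fibers, set fiber thickness and spacing, and some of them hold growth factors such as TGF-beta. In the brain fibroblasts of the meninges and of larger vessels are a source of interstitial collagen and proteoglycan RNA, while collagen IV RNA is made mainly by endothelial cells and pericytes. The cells that made each member's RNA were not measured here.

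Of 9 markers of hippocampal neurons, 0 had a mean signal in the lowest 25% of all probe sets. Their averages in SAMR1 ran from 5.20 (Spink8) to 14.86. Neurod6, a pyramidal neuron factor, stood at 14.86 in SAMR1, 14.85 in SAMP8 and 14.88 after TG, and Prox1, the dentate granule cell factor, at 11.26, 11.85 and 11.00. Over all probe sets the median average was 6.09, 6.04 and 6.07 in the same order of groups. Of the 52 members, 12 had a mean signal in the lowest 25% of all probe sets (up to 4.4), where little separates a signal from background, and 2, Dcn and Col16a1, lay in the highest 25%. Since whole hippocampal tissue was used, fewer matrix-making cells and less RNA per cell cannot be told apart.

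With TG, the members past 1.5-fold were all lower, and the 4 lowest differences were those of proteoglycans. Between the strains the members' counts in either direction were small, and their order depended on the fold limit. Between SAMP8 and SAMR1, 2 of the 52 members were higher past 1.5-fold (Fmod and Ogn), against 5.00% of all probe sets. In that comparison 5 members were lower, namely Col6a4, Col24a1, Col1a2, Col9a3 and Lum, where 6.08% of all probe sets were lower. At a limit of 2-fold 1 member was higher (Fmod) and 0 were lower. With TG, 0 members were higher past 1.5-fold, against 4.48% of all probe sets. The 6 members lower with TG were Fmod, Ogn, Omd, Dcn, Col11a1 and Col25a1, against 3.74% of all probe sets. This gives 11.5% of the members, and 4 of the 6 were proteoglycans.

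Fmod encodes fibromodulin, which binds fibrillar collagen and guides its assembly. Its gene lies on chromosome 1 from 134037254 to 134048280 (GRCm38). Fmod averaged 4.66 in SAMR1, 6.09 in SAMP8 and 4.21 after TG. The SAMP8 average was the high one of the 3, 2.69-fold above SAMR1, and the average after TG was 3.68-fold below SAMP8. Its log2 difference of -1.88 with TG ranked 5 from the lowest among all 22206 probe sets. Between the strains its difference of 1.43 ranked 66 from the highest. The average after TG lay below 4.4, the limit of mean signal under which little separates a signal from background. The SAMR1 average of 4.66 lay little above that limit. Both differences of Fmod were thus taken against low signal, although its mean signal of 4.99 lay above the limit.

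Ogn encodes osteoglycin, a proteoglycan of bone, vessel wall and meninges. Its averages were 7.81 in SAMR1, 8.53 in SAMP8 and 7.43 after TG, so that the log2 difference was 0.72 between the strains and -1.10 with TG. The latter ranked 42 from the lowest among all probe sets. Omd, whose product osteomodulin is related to fibromodulin, averaged 4.17, 4.34 and 3.54 in the same order. With TG it differed by -0.80, or 1.74-fold, although its mean signal lay in the lowest 25% of all probe sets.

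Dcn encodes decorin, which coats collagen fibers and binds TGF-beta. It averaged 10.66 in SAMR1, 10.15 in SAMP8 and 9.38 after TG. Unlike Fmod and Ogn, Dcn was highest in SAMR1 and had a log2 difference of -0.51 between the strains, short of 1.5-fold. A further difference of -0.77 with TG placed the treated group 2.43-fold below SAMR1, at rank 56 from the lowest among all probe sets for that pair of groups.

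The other proteoglycans differed less with TG, by -0.44 to 0.46, and between the strains they ranged from -0.60 to 0.53. Bgn, which encodes biglycan, the closest relative of decorin, averaged 5.48, 6.01 and 5.57 in SAMR1, SAMP8 and TG-treated SAMP8, a log2 difference of 0.53 between the strains and -0.44 with TG. Prelp, a proteoglycan that anchors basement membranes to the underlying matrix, averaged 7.61, 7.55 and 7.21. For Aspn, which encodes asporin, the averages were 4.84, 4.55 and 4.42. Lum encodes lumican, which keeps collagen fibers thin and evenly spaced. With averages of 7.42, 6.82 and 7.28 it was the only proteoglycan of the 8 that was higher with TG, by 0.46, and it was 1.52-fold lower in SAMP8 than in SAMR1.

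**Figure D1:**
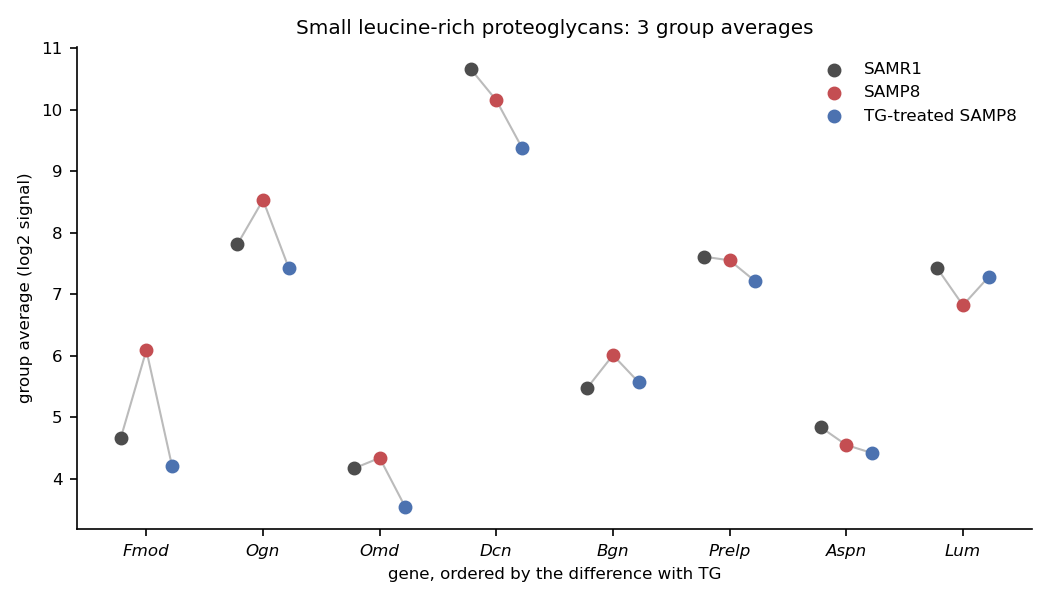
Group averages (log2 signal, vertical axis) of the 8 small leucine-rich proteoglycans in SAMR1, SAMP8 and TG-treated SAMP8, 1 point per group with no error available, joined by a grey line within a gene. Fmod goes from 4.66 to 6.09 to 4.21, and 7 of the 8 genes are lower in TG-treated SAMP8 than in SAMP8, Lum being the exception.

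Markers of meningeal fibroblasts were mostly lower with TG, as the proteoglycans were. In a list of 20 such genes that holds no member, the mean log2 average was 6.30 in SAMR1, 6.74 in SAMP8 and 6.08 after TG. The list was chosen with earlier results of these data known, so its counts are a description only. With TG, 18 of the 20 were lower, 9 of them past 1.5-fold, against 3.74% of all probe sets. Past 1.5-fold 0 were higher, against 4.48%. The lowest log2 differences were those of Ptgds (-2.69), Zic1 (-1.91), Igf2 (-1.89), Mgp (-1.21) and Slc6a20a (-0.79). Ptgds is also made by oligodendrocytes and the choroid plexus, Igf2 also by the choroid plexus, and Zic1 also by neurons of the thalamus. Between the strains, 16 of the 20 were higher in SAMP8, with a median of 0.29. Past 1.5-fold 6 were higher (Igf2 by 1.58, Islr by 1.04, Mgp by 0.99, Foxc1 by 0.89, Ptgds by 0.87 and Igfbp2 by 0.67) and 0 lower. The shares of all probe sets were 5.00% higher and 6.08% lower. Of the proteoglycans 4 were higher in SAMP8 and 4 lower, Lum (-0.60) and Dcn (-0.51) among the latter. The list's averages ran from 3.34 to 10.91 in SAMR1, from 3.13 to 11.47 in SAMP8 and from 2.88 to 9.59 in TG-treated SAMP8, and 2 of its genes, Foxc2 and Slc47a1, lay in the lowest 25% of signal. Other lists were also mostly lower with TG, among them 9 of 10 endothelial markers and 12 of 15 laminins, nidogens, perlecan and agrin. Choroid plexus markers were split, with 6 of 11 lower. The part of meningeal fibroblasts in the proteoglycan differences was not tested.

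Meningeal fibroblasts also make fibrillar collagens, and the chains of types I and III differed little with TG. Col1a1 and Col1a2 encode the chains of type I collagen, the main fiber of connective tissue. Col1a1 averaged 5.73 in SAMR1, 5.73 in SAMP8 and 5.86 after TG. Its partner Col1a2 averaged 6.13, 5.49 and 5.66, a 1.56-fold lower level in SAMP8 than in SAMR1 and a log2 difference of 0.17 with TG. Col3a1, the type III chain found beside type I in vessel walls and meninges, averaged 3.39, 3.73 and 3.55, with a mean signal in the lowest 25% of all probe sets. It was thus highest in SAMP8, as most of the fibroblast markers were. The differences with TG of these 3 genes lay between -0.18 and 0.17, which is inside the range from -0.19 to 0.20 that holds the middle 50% of all probe sets.

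Of the other fibrillar chains, Col24a1 and Col11a1 differed most. Col24a1, a minor fibrillar chain, averaged 5.11 in SAMR1, 4.40 in SAMP8 and 4.93 after TG, with a log2 difference of -0.71 between the strains and 0.53 with TG. Col11a1 encodes a chain of type XI collagen, which sits in the core of thin fibers of cartilage. Its averages of 6.83, 6.45 and 5.78 stepped down from SAMR1 to SAMP8 to TG-treated SAMP8, 1.59-fold lower with TG than without and 2.07-fold lower than in SAMR1. Its partner chain Col11a2 averaged 7.41, 7.12 and 7.57 and was thus higher with TG by 0.45. The remaining fibrillar chains, Col2a1, Col5a1, Col5a2, Col5a3 and Col27a1, had log2 differences between -0.23 and 0.40 in the strain comparison and between -0.13 and 0.26 with TG. Over the 11 fibrillar collagens the median log2 difference was -0.20 between the strains and 0.13 with TG, beside 0.00 and 0.01 over all probe sets.

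The collagen IV chains of the basement membrane differed by 0.35 or less between any of the groups. Col4a1 and Col4a2, whose products join into the common form of collagen IV around brain vessels, averaged 6.42, 6.40 and 6.42 and 6.27, 6.04 and 6.10 in SAMR1, SAMP8 and TG-treated SAMP8. Col4a3 (4.48, 4.80 and 4.83) and Col4a4 (5.29, 5.26 and 5.31) form, with Col4a5, the collagen IV of kidney and lung. Col4a5 averaged 3.70, 3.79 and 3.90, and Col4a6, which joins with Col4a5 in other tissues, 4.72, 4.73 and 4.91. With TG all 6 chains were higher, by 0.02 to 0.18 on the log2 scale, and 0 of them passed 1.5-fold in any comparison. The class median was -0.01 between the strains and 0.06 with TG. Of 10 endothelial markers 9 were lower with TG, and the median log2 difference was -0.28. Past 1.5-fold 1 was lower, against 3.74% of all probe sets. It was Slco1a4, a transporter of brain endothelium, at 11.06, 11.62 and 10.62. Between the strains 9 of the 10 were higher in SAMP8, with a median of 0.23. Past 1.5-fold 1 was higher, Flt1, by 0.66, against 5.00% of all probe sets.

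The 27 other collagens had a median log2 difference of -0.15 between SAMP8 and SAMR1, with 20 lower, 6 higher and 1 level, and of 0.02 with TG, with 14 higher and 13 lower. In the beaded filament group, collagen VI, the chains Col6a1 (5.66, 5.42 and 5.35), Col6a2 (5.67, 5.69 and 5.61) and Col6a3 (6.71, 6.54 and 6.31) form the common protein of the pericellular matrix. Their log2 differences with TG lay between -0.23 and -0.07. Col6a4, a later-described chain of the same family, averaged 6.06 in SAMR1, 5.29 in SAMP8 and 4.89 after TG. It was 1.71-fold lower in SAMP8 and 2.25-fold lower in TG-treated SAMP8 than in SAMR1, the latter at rank 88 from the lowest of all probe sets. The related chains Col6a5 (4.98, 5.20 and 5.22) and Col6a6 (4.73, 4.24 and 4.18) did not pass 1.5-fold.

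FACIT collagens decorate the surface of fibers. Of the 9 on the array, 8 were lower in SAMP8 than in SAMR1 and Col20a1 was higher, by 0.11. Col9a1, Col9a2 and Col9a3, whose products assemble into type IX collagen, had log2 differences of -0.41, -0.17 and -0.62 between the strains and 0.06, -0.04 and 0.31 with TG. Col9a3 averaged 7.18 in SAMR1, 6.56 in SAMP8 and 6.87 after TG and was the FACIT chain past 1.5-fold. Col16a1, the FACIT chain in the highest 25% of signal, averaged 9.25, 9.16 and 8.87. Col19a1, which in the hippocampus is made by interneurons, averaged 4.86, 4.65 and 4.74. The remaining FACIT chains, Col12a1, Col14a1 and Col22a1, had log2 differences with TG of -0.06, -0.34 and 0.10.

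Transmembrane collagens carry a single membrane-spanning segment, and neurons make some of them. Col25a1 encodes a neuronal collagen whose shed part is found in amyloid plaques. It averaged 7.55 in SAMR1, 7.43 in SAMP8 and 6.83 after TG, 1.52-fold lower with TG than without. Col13a1, a collagen of the neuromuscular junction, averaged 7.63, 7.16 and 7.67, with log2 differences of -0.47 between the strains and 0.51 with TG. Col17a1, a component of the attachment of epithelium to its basement membrane, differed by -0.33 and 0.32, and Col23a1 by -0.03 and -0.01. In SAMP8 each of the 4 transmembrane chains was lower than in SAMR1, and with TG 2 were higher and 2 lower.

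Col15a1 and Col18a1, the multiplexins of vascular basement membranes, had log2 differences of -0.38 and -0.31 between the strains and 0.20 and -0.05 with TG. Col7a1, the anchoring fibril collagen of skin, shares its probe set with the microRNA gene Mir711 and differed by 0.12 and 0.29. The short chain collagens were Col8a1 (0.00 and 0.04), Col8a2 (-0.32 and 0.14) and Col10a1 (0.51 and 0.13). Col10a1, the collagen of growth plate cartilage, averaged 3.09, 3.60 and 3.73 and was the member that passed 1.5-fold upward in TG-treated SAMP8 against SAMR1, in the lowest 25% of signal. The unclassed Col26a1 and Col28a1 differed by -0.15 and 0.13 between the strains and by 0.20 and -0.43 with TG. In the strain and TG comparisons the members just past 1.5-fold were Lum between the strains and Col25a1 with TG, each at -0.60, and the nearest short of it were Bgn between the strains and Col24a1 with TG, each at 0.53. In TG-treated SAMP8 against SAMR1 the nearest were Omd at -0.63 inside and Col6a6 at -0.55 outside.

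**Figure D2:**
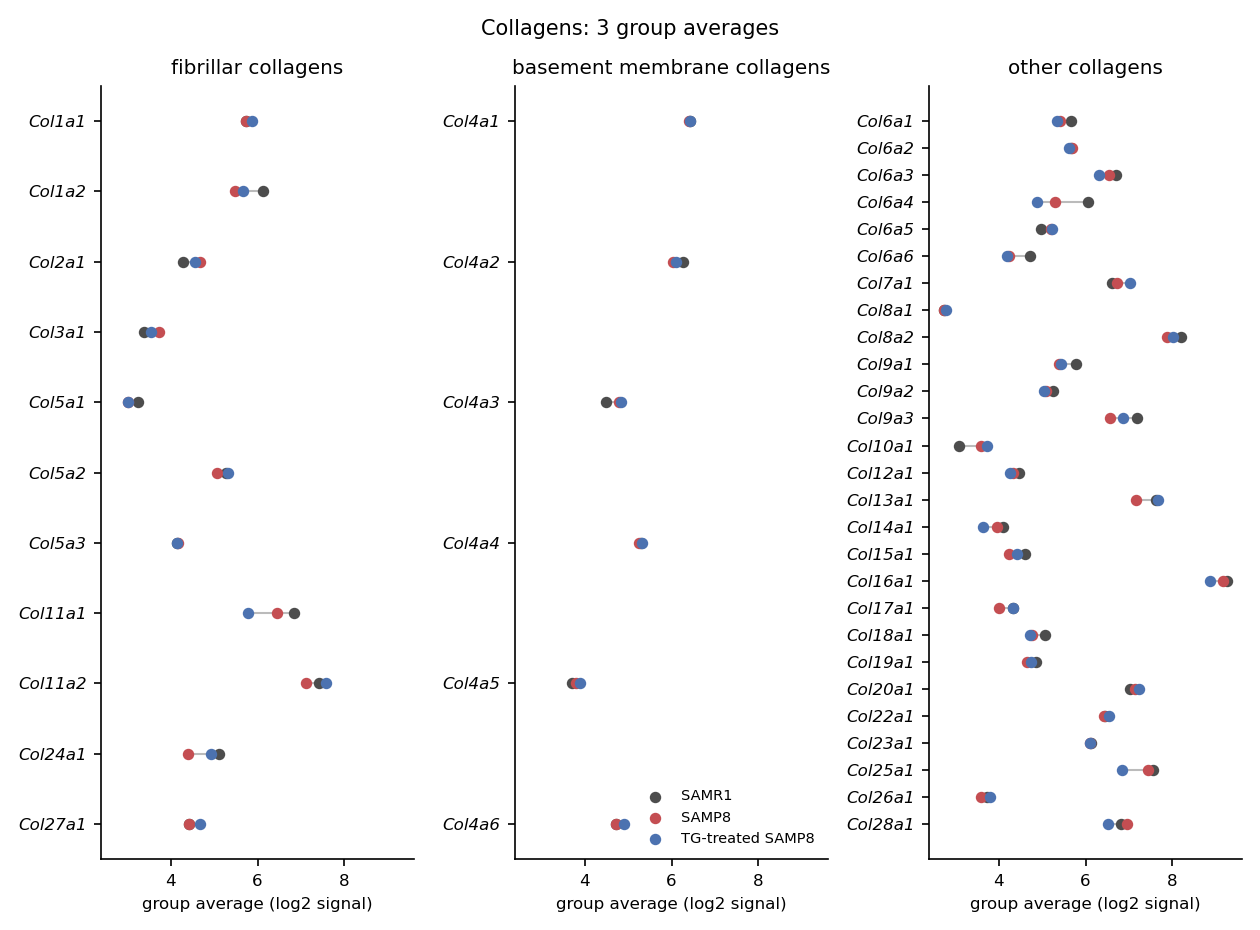
Group averages (log2 signal, horizontal axis) of the 44 collagens by class, with 1 point each for SAMR1, SAMP8 and TG-treated SAMP8 and no error available; where averages coincide, the point drawn last covers the others. For each collagen IV chain the 3 points lie within 0.35 of each other, and Col6a4, Col11a1, Col24a1 and Col1a2 are among the chains with the points farthest apart.

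The proteoglycans and the collagens were then set side by side. The median log2 difference with TG was -0.60 over the 8 proteoglycans, with 7 lower and 1 higher, and 0.04 over the 44 collagens, with 17 lower, 26 higher and 1 level. Past 1.5-fold, 4 of 8 proteoglycans and 2 of 44 collagens (4.55%) were lower, beside 3.74% of all probe sets, so that the collagens were close to that share. Between the strains the collagens had a median of -0.14, with 29 lower and 13 higher. The proteoglycans spread widely there, from -0.60 (Lum) to 1.43 (Fmod) around a median of 0.06. Differences between classes were not tested.

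**Figure D3:**
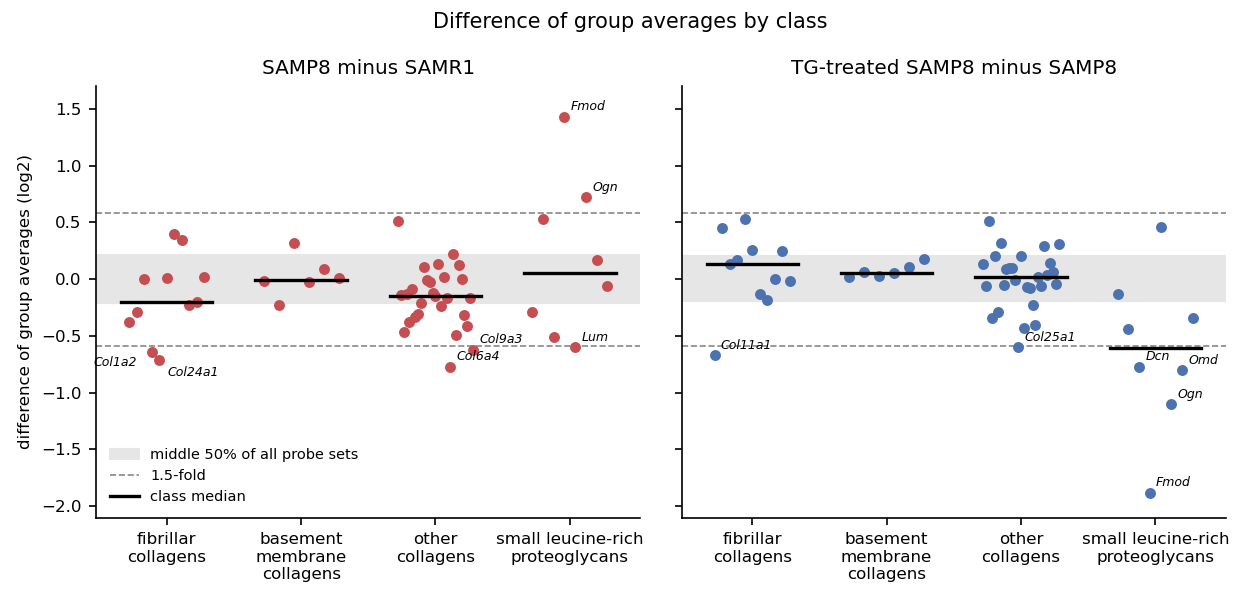
Log2 difference of group averages (vertical axis) for each of the 52 members by class, SAMP8 minus SAMR1 on the left and TG-treated SAMP8 minus SAMP8 on the right, with the class median as a black bar, the middle 50% of all probe sets in grey and 1.5-fold as dashed lines. With TG the proteoglycan median is -0.60, while the medians of the collagen classes lie between 0.02 and 0.13. The same SAMP8 averages enter both panels.

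TG-treated SAMP8 was also set against SAMR1, a pair of groups that differs in both strain and treatment. Here 1 member was higher past 1.5-fold, Col10a1, against 5.62% of all probe sets. The 5 lower members, against 4.83% of all probe sets, were Dcn (-1.28), Col6a4 (-1.17), Col11a1 (-1.05), Col25a1 (-0.72) and Omd (-0.63). Fmod and Ogn were not among them, with log2 differences of -0.45 and -0.38. The median of the 8 proteoglycans was -0.41 and that of the 6 basement membrane collagens 0.10.

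Many members are neighbors in the genome. By the RefSeq annotation of GRCm38, 22 of the 52 lay within 200 kb of another member, in 10 loci. Dcn and Lum lie 47.3 kb apart on chromosome 10, Dcn from 97479500 to 97518163 and Lum from 97565501 to 97572703. Both were lower in SAMP8 than in SAMR1 (-0.51 and -0.60), but with TG Dcn differed by -0.77 and Lum by 0.46. On chromosome 13, Aspn, Omd and Ogn follow each other between 49544443 and 49624501. With TG they differed by -0.13, -0.80 and -1.10 in that order. Prelp lies 107.2 kb from Fmod on chromosome 1 and differed by -0.06 between the strains and -0.34 with TG, beside 1.43 and -1.88 for Fmod.

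The collagen IV genes are arranged head to head in pairs. Col4a1 and Col4a2 on chromosome 8, which overlap at their ends, differed by -0.02 and -0.23 between the strains and by 0.02 and 0.06 with TG. The pair Col4a4 and Col4a3 on chromosome 1 differed by -0.03 and 0.32 and by 0.05 and 0.03, and the pair Col4a6 and Col4a5 on chromosome X by 0.01 and 0.09 and by 0.18 and 0.11. Col3a1 and Col5a2, 24.6 kb apart on chromosome 1, differed in opposite directions, by 0.34 and -0.20 between the strains and by -0.18 and 0.25 with TG. In the row Col6a6, Col6a5 and Col6a4 on chromosome 9 the strain differences were -0.49, 0.22 and -0.77. Col9a1 lies 4.9 kb from Col19a1 on chromosome 1, and Col6a2 lies 85.2 kb from Col6a1 on chromosome 10.

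**Figure D4:**
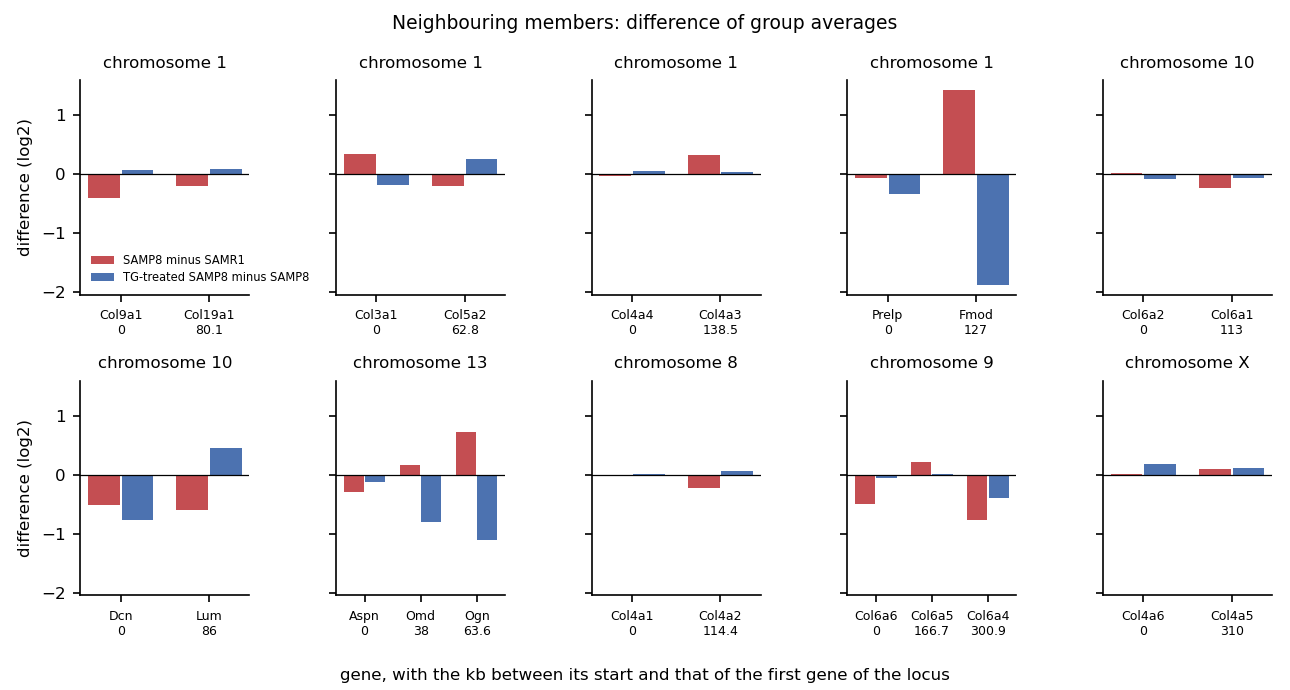
Log2 difference of group averages (vertical axis, bars from 0) for the members in each of the 10 loci, SAMP8 minus SAMR1 in red and TG-treated SAMP8 minus SAMP8 in blue, with no error available; under each gene is the distance of its start from that of the first gene, in kb. Fmod stands apart from Prelp, and Dcn and Lum go opposite ways with TG.

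Genes that make, modify and cross-link collagen lay on both sides of 0. Of 31 such genes, 7 (22.6%) were lower past 1.5-fold with TG, against 3.74% of all probe sets. In the same comparison 1 (3.23%) was higher, against 4.48%, and the median log2 difference was -0.02. The lowest were P3h2 (-0.83), a prolyl 3-hydroxylase, Fkbp14 (-0.83), a prolyl isomerase of the endoplasmic reticulum, Mia3 (-0.76), which loads procollagen into transport vesicles, and Bmp1 (-0.67), the protease that trims procollagen ends. P4ha3, a subunit of prolyl 4-hydroxylase, was higher by 0.72. Between the strains 4 were higher and 2 lower past 1.5-fold, against 5.00% and 6.08% of all probe sets. P3h2, which acts on collagen IV among others, averaged 8.11 in SAMR1, 6.60 in SAMP8 and 5.77 after TG. Sparc, a collagen-binding matrix protein that astrocytes and endothelium also make, averaged 12.48, 13.65 and 13.01 and was higher in SAMP8 by 1.17.

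Among 17 collagen receptors, degrading enzymes and their inhibitors, 2 (11.8%) were higher past 1.5-fold in SAMP8 than in SAMR1, against 5.00% of all probe sets. With TG 3 (17.6%) were lower, against 3.74%. Of the 17, 7 had a mean signal in the lowest 25%, where a difference can be hidden. Ddr2, the fibroblast receptor for fibrillar collagen, averaged 5.33, 6.30 and 5.51 in SAMR1, SAMP8 and TG-treated SAMP8. Timp3, a metalloproteinase inhibitor bound to the matrix, averaged 5.64, 6.65 and 5.74, and Timp2, the third gene past 1.5-fold with TG, 13.40, 13.95 and 13.28. The other basement membrane components, 15 laminins, nidogens, perlecan and agrin, had a median of 0.07 between the strains and -0.09 with TG. Between the strains 2 (13.3%) were higher past 1.5-fold, Lamb3 by 0.73, in the lowest 25% of signal, and Nid2 by 0.68. The share of all probe sets was 5.00%. In that comparison 0 were lower, against 6.08%. With TG 12 of these 15 were lower, 2 past 1.5-fold (Lamb2 by -0.71 and Lamb3 by -0.63), whereas all 6 collagen IV chains were higher by 0.18 or less.

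Leucine-rich matrix genes outside the members were also mostly lower with TG. Of 8 such genes 7 were lower, with a median of -0.31. Past 1.5-fold 2 (25%) were lower, Ecm2 (-0.69) and Podn (-0.59), against 3.74% of all probe sets. Ecm2 and Podn, which encode matrix proteins with leucine-rich repeats, averaged 5.72, 5.93 and 5.24 and 4.52, 4.97 and 4.38. In a list of 11 TGF-beta ligands, receptors, binding proteins and the target Ccn2, 9 were lower with TG, with a median of -0.20. Past 1.5-fold 2 of the 11 were lower, Tgfbr3 (-0.97), the betaglycan co-receptor, and Ccn2 (-0.62), a matricellular protein. The share of all probe sets was 3.74%. Between the strains 0 genes of the list passed 1.5-fold, where 5.00% of all probe sets were higher and 6.08% lower.

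Markers of other cell types were on balance higher in SAMP8 than in SAMR1, with median log2 differences of 0.20 for pericytes and smooth muscle, 0.18 for choroid plexus epithelium, 0.25 for hippocampal neurons and 0.23 for thalamic neurons. Higher past 1.5-fold were Acta2 (2.19), Rgs5 (1.29) and Vtn (1.18) of the first list, Ttr (0.88) and Kl (0.67) of the second, Prox1 (0.59) and Spink8 (from 5.20 in SAMR1 to 6.50 in SAMP8) of the third and Tcf7l2 (0.76) and Rgs16 (0.70) of the fourth, while Tagln (-0.83) and Tnnt1 (-0.78) were lower. With TG the medians of these lists were -0.32, -0.04, -0.17 and -0.03 in the same order, and single genes went both ways. For pericytes and smooth muscle the mean log2 average was 6.10, 6.51 and 6.16 in SAMR1, SAMP8 and TG-treated SAMP8, and with TG 2 of 10 genes were lower past 1.5-fold (Acta2 by -2.17 and Myh11 by -0.76) and 1, Tagln, was higher by 0.71. For choroid plexus epithelium it was 6.39, 6.55 and 6.55, and 2 of 11 genes were higher past 1.5-fold with TG (Ttr by 0.72 and Sostdc1 by 0.66) and 1, Kl, was lower by -0.79. Of 7 thalamic neuron markers, Prkcd was lower with TG by -1.50 and Tnnt1 higher by 0.66. Of 9 hippocampal neuron markers, Prox1 (-0.85) and Zbtb20 (-0.65) were lower with TG past 1.5-fold. Of all probe sets 5.00% were higher and 6.08% lower past 1.5-fold between the strains. With TG the shares were 4.48% higher and 3.74% lower. The part of tissue composition in the matrix differences was not tested.

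**Figure D5:**
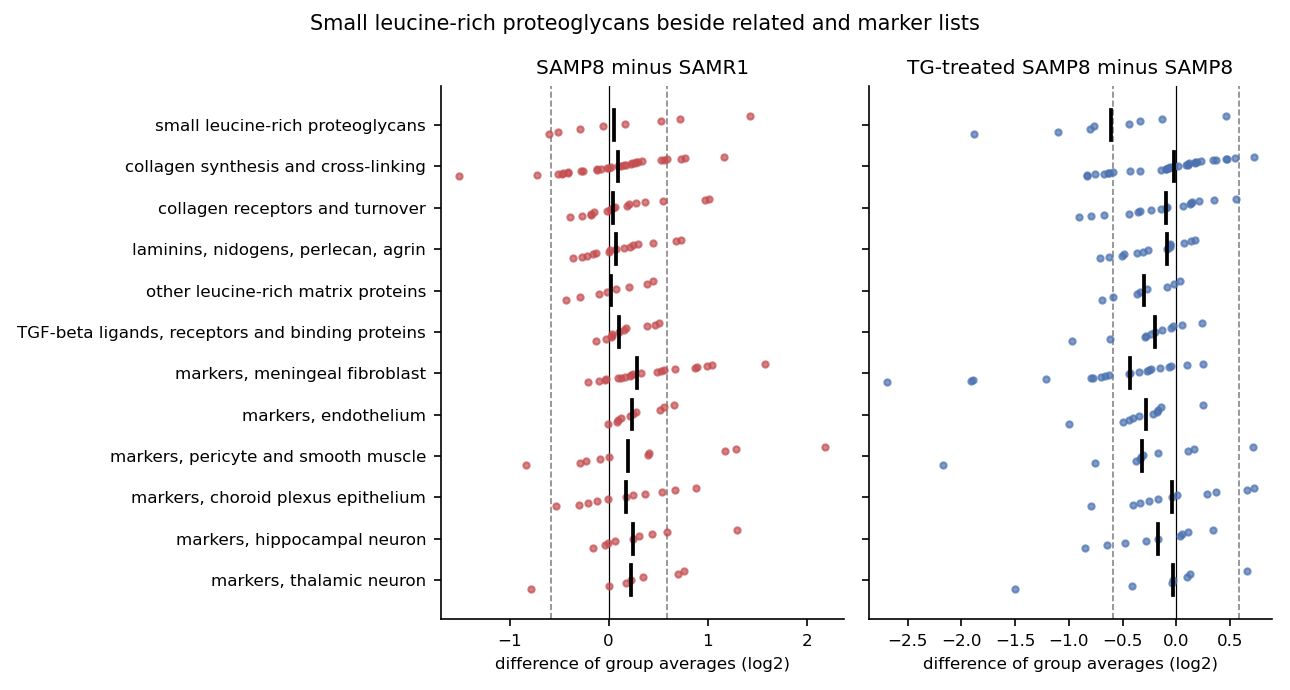
Log2 difference of group averages (horizontal axis) for every gene of the 8 proteoglycans, 5 related lists and 6 marker lists, SAMP8 minus SAMR1 on the left and TG-treated SAMP8 minus SAMP8 on the right, with list medians as black bars and 1.5-fold as dashed lines; the 2 panels have different scales. With TG the medians of the proteoglycans (-0.60) and of the meningeal fibroblast markers (-0.43) lie farthest below 0. The lists were chosen with earlier results of these data known.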

How the data were processed

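Total RNA of the hippocampus was hybridized to Clariom S Mouse arrays. Per the study's methods, the authors summarized and normalized the probe intensities by SST-RMA in the Transcriptome Analysis Console, and the 2 deposited tables give the authors' group averages as log2 signal with 2 decimals. The tables also hold the authors' fold changes, p-values and false discovery rates, which are their own comparisons and were not used. The number of arrays behind each average limits its precision. The SAMP8 averages were identical in both tables for all 22206 probe sets. The design text of the series speaks of duplicate samples, whereas the records and the methods give 3 arrays per group, and the record descriptions name a macrophage line and were disregarded.

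Differences of the averages were taken per probe set and called at 1.5-fold. No test, error or p-value can be had from averages alone. Alternatives were fold limits of 1.3 and 2, leaving out the 25% of probe sets with the lowest mean signal, centering on the median of all probe sets, 1 value per gene symbol, class means, and a wider basement membrane class. Class medians within 0.1 of each other were taken as equal. Positions of all 52 members came from the RefSeq table of GRCm38, the build the array annotation uses, since the tables hold none. The counting was tested on simulated data. The members, the classes and the gene lists were chosen with earlier results of these data known. Named are all members past 1.5-fold, a fixed set of major members and neighboring members, with the other members added for completeness, and of each list at most 5 genes past 1.5-fold per comparison, except Igfbp2 and the neuron markers used as a tissue check, which were chosen after their values were seen. Python 3.11.15, numpy 2.4.6, pandas 2.3.3 and matplotlib 3.10.9 were used.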

Additional observations from a re-analysis of the deposited data

How the results depend on the processing

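No paired analysis was possible because the tables hold group averages, and for the same reason no replicate could be left out. The fold limit moved the counts most. At 1.3-fold, 5 members were higher and 11 lower in SAMP8 than in SAMR1 (13.0% and 13.6% of all probe sets). With TG 4 were higher and 9 lower (12.1% and 11.2%). In TG-treated SAMP8 against SAMR1, 2 were higher and 14 lower (13.2% and 13.1%). The members lower with TG exceeded the share of all probe sets by less at 1.3-fold than at 1.5-fold. At 2-fold, 1 was higher and 0 lower between the strains (0.838% and 1.47%), 2 were lower with TG (0.342%), and 0 were higher and 3 lower in TG-treated SAMP8 than in SAMR1 (1.13% and 0.712%). Leaving out the dimmest 25% of probe sets, Omd and Col10a1 among them, the proteoglycan median was -0.06 between the strains and -0.44 with TG, and 0 members were higher in TG-treated SAMP8 than in SAMR1. Means in place of medians gave 0.17 for the proteoglycans between the strains and -0.08 for the fibrillar collagens in TG-treated SAMP8 against SAMR1. In all, 69 counts and medians, the 9 members lower with TG at 1.3-fold among them, stayed within 1.5 times or within 0.1 of their values. Members in the dimmest 25%, such as Col3a1, can hide a difference.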
